A study of Mus musculus with 6 samples.

Results

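Cytosolic sulfotransferases are soluble enzymes that move a sulfonate group from the donor PAPS onto steroids, bile acids, phenols, amines and foreign compounds, which makes them more water-soluble and easier to excrete. Family 1 enzymes act mainly on phenols and family 2 enzymes mainly on hydroxysteroids and bile acids. Hepatocytes are a main site of expression, and in mouse liver several of these genes are known to be higher in one sex, under the control of growth hormone and nuclear receptors. The 9 genes described here were taken by name from the gene table: Sult1a1, Sult1b1, Sult1c2, Sult1d1, Sult2a1, Sult2a2, Sult2a8, Sult3a1 and Sult5a1. They are 9 of the 34745 gene rows, and all 9 were among the 11435 genes expressed highly enough to be tested.

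The 6 libraries come from C57BL/6 mice and hold 1 library for each tissue and sex. Hepatocellular carcinoma and the adjacent precancerous liver came from Hras12V transgenic mice, and normal liver from wild-type mice. The mice were not treated; the age was 9 months for all male and 15 months for all female mice, which ties age to sex. The labels give neither the promoter that drives the transgene, nor the number of mice behind a library, nor a link between a tumour and the precancerous tissue of 1 mouse. With 1 library per group there are no replicates, and every p-value below measures only the spread between these 6 libraries.

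Total counts were 7347064, 6891837 and 5996585 in male tumour, precancerous and normal liver, and 18434508, 15047022 and 17655912 in the female libraries of the same tissues. The 5 genes chosen to check the labelled sex were called in the labelled direction. The sexes also differed, in every tissue, in the counts of mitochondrial genes: mt-Co1 had 0 counts in each male library, against 266126 to 586467 in the female libraries, and mt-Nd6 had 5627 to 11819 counts in male libraries, against 24 to 44 in female libraries. Sex, age and the handling of the libraries therefore cannot be told apart. The labelled liver tissue carried its markers in every library: the 7 hepatocyte genes measured, albumin among them, summed to 66865, 48177 and 33068 FPKM in male tumour, precancerous and normal liver, and to 64628, 52600 and 46557 FPKM in female tumour, precancerous and normal liver. Most of each sum was albumin, with 22399 to 54600 FPKM, so the sums mainly follow that gene. FPKM is the count scaled to gene length and library total. Of these 7 genes, 0 were called between tumour and precancerous liver (2 at an unadjusted p under 0.05), and 1, Ttr, was lower in tumour than in normal liver. The tumour and fetal liver genes Afp, Gpc3 and H19 summed to 208, 4.12 and 0.654 FPKM in male tumour, precancerous and normal liver, and to 487, 45.9 and 0.275 FPKM in the female libraries.

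In the tumours the 9 genes had a lower summed level than in the other livers of the same sex, and most of it was Sult1a1. The 9 genes summed to 190.1 FPKM in male tumour, 329 FPKM in male precancerous and 465 FPKM in male normal liver. In females the sums were 179 FPKM in tumour, 602 FPKM in precancerous and 792 FPKM in normal liver. The tumours of the sexes thus had similar sums, while the non-tumour livers of females summed higher than those of males. Sult1a1, a phenol sulfotransferase, made up 73.5% of the sum in male tumour, against 43.3% in male precancerous and 15.3% in male normal liver. In females it made up 70.4% in tumour, 28.3% in precancerous and 20.6% in normal liver. Sult2a8 held 68.8% of the sum in male normal liver and 13.1% in female normal liver, but 1.88% in male tumour and 0.471% in female tumour. The 4 family 1 genes, Sult1a1 among them, summed to 183, 258 and 138 FPKM in male tumour, precancerous and normal liver. In females they summed to 159, 253 and 256 FPKM in the same order. In males the family 1 sum was thus higher in tumour than in normal liver, while Sult2a8 had 3.57 FPKM in tumour and 319 FPKM in normal liver. Sult2a1 and Sult2a2 had 0 counts in male normal liver, and together held 39.4% of the sum in female normal liver.

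**Figure D1:**
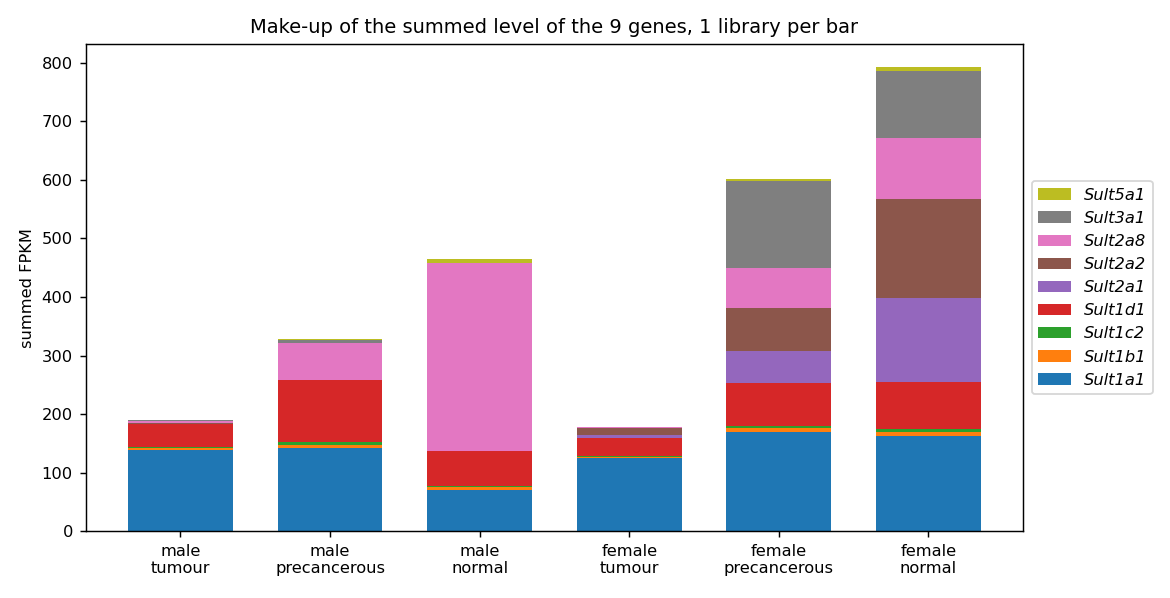
Stacked bars give the FPKM of each of the 9 genes in each of the 6 libraries (vertical axis, summed FPKM), male libraries on the left and female ones on the right, each in the order tumour, precancerous, normal. The bars of tumour tissue reach 190.1 FPKM (male) and 179 FPKM (female), and most of each is Sult1a1.

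The genes lie in several clusters of the genome (coordinates of the GRCm38 build, as the table gives them). Sult2a1 (chr7:13796246-13837409), Sult2a2 (chr7:13733505-13779636) and Sult2a8 (chr7:14410686-14446769) share a stretch of chromosome 7 with other Sult2a genes, and Sult2a1 and Sult2a2 are 16.6 kb apart. Sult1b1 (chr5:87513339-87538195) and Sult1d1 (chr5:87554645-87569027) are neighbours on chromosome 5, 16.4 kb apart. The others stand at chr7:126672865-126676432 (Sult1a1), chr17:53829637-53846339 (Sult1c2), chr10:33863935-33879475 (Sult3a1) and chr8:123142847-123158315 (Sult5a1). All 9 are annotated as protein coding. Sult2a2 and Sult2a1 are near-identical copies: 62.1% of the stretches of 50 bases in Sult2a2 transcripts, and 33.2% of those in Sult2a1, also occur in another gene, mostly in each other. How such reads were split in the authors' counting was not stated, so the values of these 2 genes are uncertain one by one. In the other members the shared part was between 0 and 7.36%, and Sult1a1 alone among the 9 overlaps exons of a gene on the opposite strand, over 4.05% of its exonic bases.

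Upstream sequences of 4 members that fell in both tumour comparisons of the fit are shown: Sult2a8, Sult5a1, Sult3a1 and Sult1d1. Sult2a8 and Sult5a1 had the most stable differences, and Sult3a1 the largest difference of the 9 between female tumour and precancerous liver. Sult1b1 also fell in both comparisons and is not shown. The sequences are RefSeq promoters (build GRCm38.p6), 5′ to 3′ on the gene's strand, cut where an annotated exon begins. Capitals mark matches, on either strand, to TTCNNNGAA (the motif of STAT factors), AGGTCA (a half-site of nuclear receptors) or GTTAAT (a half-site of HNF1).
Sult2a8, inner of the 2 starts, chr7:14438562-14438801, minus strand: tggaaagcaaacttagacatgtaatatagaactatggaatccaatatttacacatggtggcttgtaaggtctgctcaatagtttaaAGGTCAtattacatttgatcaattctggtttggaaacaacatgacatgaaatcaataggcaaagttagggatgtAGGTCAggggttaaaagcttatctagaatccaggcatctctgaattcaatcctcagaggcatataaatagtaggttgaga
Sult5a1, chr8:123158316-123158530, minus strand: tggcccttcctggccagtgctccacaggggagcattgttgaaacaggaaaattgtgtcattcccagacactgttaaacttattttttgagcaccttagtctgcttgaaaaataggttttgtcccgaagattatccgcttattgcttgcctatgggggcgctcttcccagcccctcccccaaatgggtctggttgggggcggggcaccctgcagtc
Sult3a1, chr10:33857472-33857720, plus strand: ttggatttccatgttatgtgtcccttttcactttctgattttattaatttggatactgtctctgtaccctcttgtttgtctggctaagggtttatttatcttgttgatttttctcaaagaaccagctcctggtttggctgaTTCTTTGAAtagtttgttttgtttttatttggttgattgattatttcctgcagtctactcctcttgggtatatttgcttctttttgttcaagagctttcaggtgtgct
Sult1d1, chr5:87569028-87569256, minus strand: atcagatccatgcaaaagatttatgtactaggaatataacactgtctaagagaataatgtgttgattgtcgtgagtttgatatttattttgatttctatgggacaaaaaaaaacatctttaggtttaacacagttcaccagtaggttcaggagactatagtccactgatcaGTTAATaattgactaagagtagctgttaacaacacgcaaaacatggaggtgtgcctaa
The Sult2a8 sequence holds AGGTCA at 2 positions, which start 164 and 90 bases before the start site, Sult3a1 holds TTCTTTGAA 109 bases before it, and Sult1d1 holds GTTAAT 79 bases before it. Sult5a1 holds none of the 3 motifs in this window. Promoters were in the table for 7 of the 9 genes, with 9 start sites; Sult2a1 and Sult2a2 had no entry there. Over the 250 bases before a start site, 2 of the 9 sites of these genes hold AGGTCA, 1 holds TTCNNNGAA and 2 hold GTTAAT, against 14%, 7.02% and 6.43% of the 32851 promoters in the table. The 3 motifs do not overlap each other in the sequences shown. A match is a string of letters and was not tested as a binding site.

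In the fit over both sexes, tumour had lower levels of most of these genes than precancerous or normal liver. The sexes were not alike in this. In log2(FPKM + 1), 9 of the 9 were lower in female tumour than in female normal liver, with a median difference of −2.68. In male tumour 4 were lower and 5 higher than in male normal liver, with a median difference of 0.48. That male median is the value of Sult1c2, from 31 counts in tumour against 15 in normal liver. The ratio of its scaled counts was 1.69, with a counting interval of 0.884 to 3.36 that includes equality. Of the other higher genes, Sult2a1, Sult2a2 and Sult3a1 had 10, 7 and 8 counts in male tumour and 0 in male normal liver. Sult1a1 had 3140 counts against 1307. The male median thus rests on few counts. In the fit, against precancerous liver, 5 of the 9 fell (Sult1b1, Sult1d1, Sult2a8, Sult3a1 and Sult5a1) and 0 rose, where 12.1% of all genes tested fell and 13.8% rose. Against normal liver, 7 of the 9 fell, the same 5 with Sult2a1 and Sult2a2, and 0 rose, where 16.1% of all genes tested fell and 17.3% rose. The median log2 fold change of the 9 was −2.19 for tumour against precancerous liver and −3.38 for tumour against normal liver, beside medians of 0.0257 and 0.000537 over all genes tested. The calls come from edgeR's quasi-likelihood test over all 6 libraries with sex as a term, at a Benjamini-Hochberg adjusted p under 0.05. In bulk tissue, fewer cells that express a gene and less RNA per cell cannot be told apart. The counts of called members with a library left out, given next, take calls in either direction. Without the female tumour library, Sult2a1 and Sult2a2 were higher in tumour than in precancerous liver, with log2 fold changes of 4.68 and 6.97. Sult2a2 was then also higher than in normal liver (5.73). Of the calls, those of Sult2a8 and Sult5a1 in both tumour comparisons and of Sult1b1 against normal liver were made whichever library was left out. Leaving out 1 library gave 2 to 7 called members against precancerous liver, with 2 when either the male or the female precancerous library was left out. It gave 3 to 8 against normal liver, with 3 without the male precancerous, the female precancerous or the female normal library and 4 without the female tumour library.

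**Figure D2:**
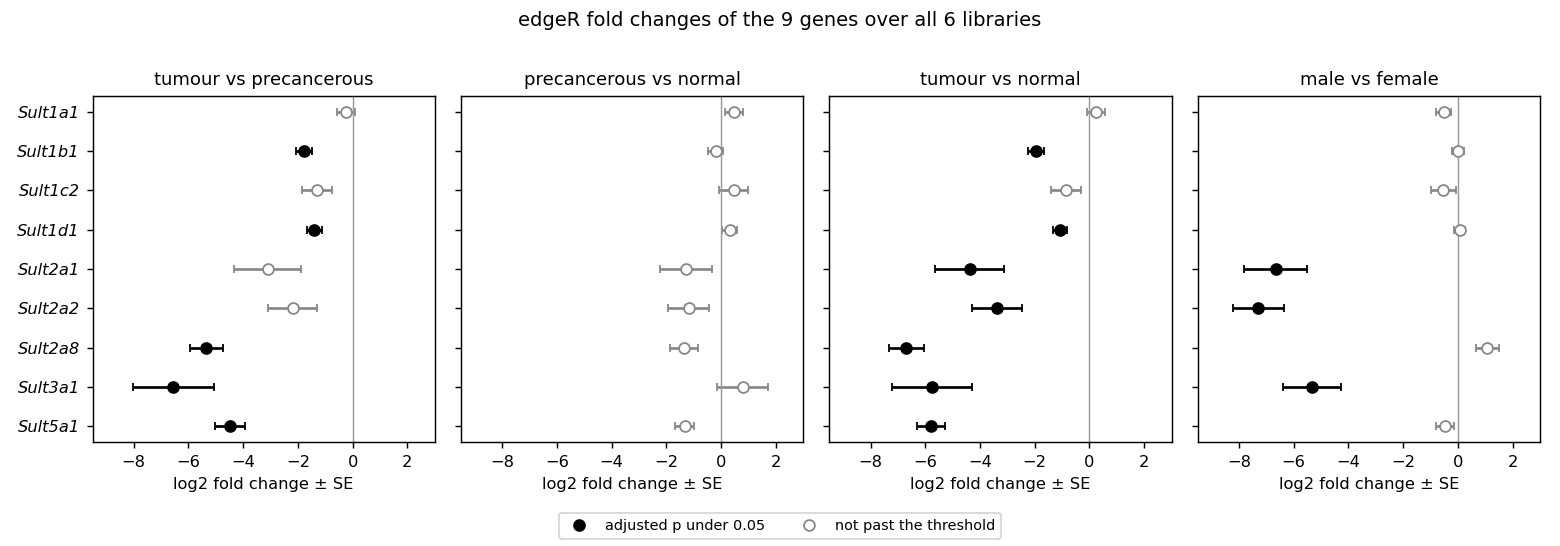
Points give the log2 fold change of each gene in the 4 comparisons (horizontal axis). The bar is its SE, worked back from the fold change and the F statistic of the test. Filled points are past an adjusted p of 0.05 in edgeR's quasi-likelihood test. In the tumour comparisons the filled points all lie left of 0, 5 of them against precancerous and 7 against normal liver, and no gene is past the threshold between precancerous and normal liver.

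Sult2a8, which in mouse conjugates bile acids, had the largest fitted fall among the 9 against normal liver. Its FPKM was 3.57 in male tumour, 63.9 in male precancerous and 319 in male normal liver. Female tumour had 0.841 FPKM, female precancerous liver 68.0 FPKM and female normal liver 104 FPKM. Both tumours lay below all 4 other livers, without overlap, in counts of 93 and 55 against 1562 to 6793. That pattern, both tumours below the other 4 libraries, was shared by 4 of the 9 genes, the other ones being Sult1b1, Sult1d1 and Sult5a1, and by 16.1% of all genes tested; 0 of the 9 and 20.7% of all genes had both tumours above the rest. The log2 fold change of Sult2a8 was −5.34 (SE 0.61, adjusted p = 0.00605) for tumour against precancerous liver and −6.70 (SE 0.64, adjusted p = 0.00257) for tumour against normal liver in edgeR's quasi-likelihood test. Without the sex term the adjusted p of the first was 0.0752. As a ratio of counts, each scaled to its library total, within a sex, the tumour level was 17.9-fold lower than the precancerous one in males (95% interval 14.5 to 22.3) and 80.8-fold lower in females (62.0 to 108). Against normal liver it was 89.5-fold lower in the male and 123-fold lower in the female tumour. These intervals are exact, from the binomial split of the 2 counts, and cover counting error only.

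In order of FPKM, Sult2a8 ran from male normal through female normal, female precancerous and male precancerous liver to the male and then the female tumour. The precancerous livers of the sexes were the closest neighbours, at a male to female ratio of scaled counts of 0.940 (0.885 to 0.997). Male normal liver was 3.07-fold above female normal liver (2.97 to 3.18), and 2.87-fold with TMM-scaled totals.

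Sult5a1 fell in the same manner at far lower levels. The male tumour had 0.133 FPKM from 3 counts, against 1.56 FPKM in male precancerous and 7.16 FPKM in male normal liver. The female tumour had 0.123 FPKM from 7 counts, against 3.78 FPKM in female precancerous and 6.19 FPKM in female normal liver. The log2 fold change was −4.47 (SE 0.55, adjusted p = 0.00690) against precancerous liver and −5.78 (SE 0.52, adjusted p = 0.00230) against normal liver in edgeR's quasi-likelihood test. Within a sex, the tumour was 53.9-fold below normal liver in males (18.0 to 265) and 50.1-fold below in females (24.1 to 126), and the width of these intervals comes from the few tumour counts. Sult2a8 and Sult5a1 were also the 2 members with a precancerous level at least 2-fold below normal liver in males.

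**Figure D3:**
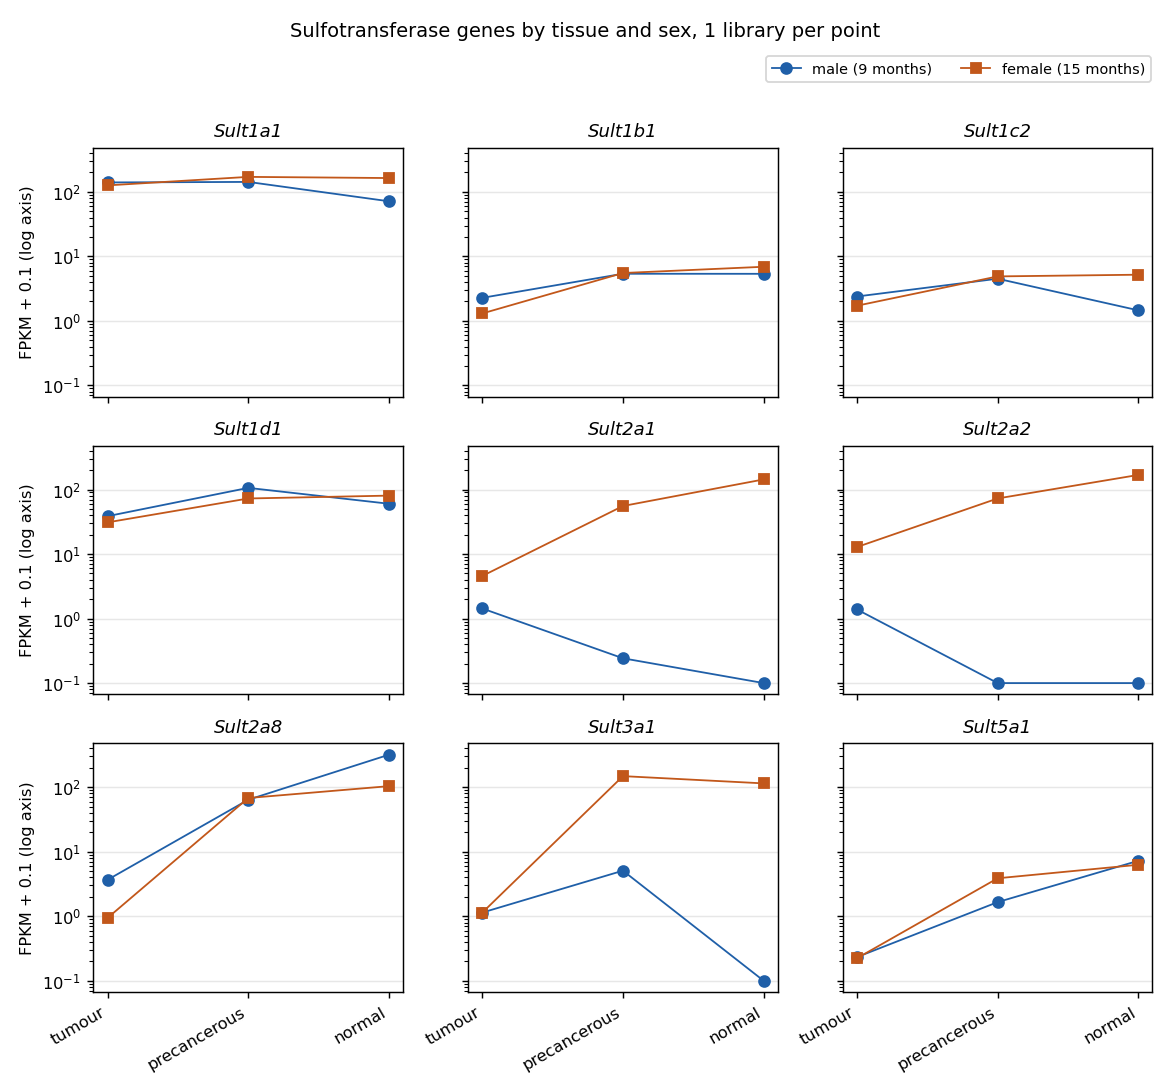
Each panel gives 1 gene, with FPKM + 0.1 on a log axis against tissue (tumour, precancerous, normal), circles for males and squares for females, 1 library per point. Sult2a8 and Sult5a1 climb through the tissues in both sexes, Sult1a1 stays between 71.3 and 170 FPKM, and the male and female lines of Sult2a1, Sult2a2 and Sult3a1 lie far apart outside the tumours.

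Of the 4 family 1 genes, Sult1b1 and Sult1d1 fell in tumour, and Sult1a1 and Sult1c2 were not called in any comparison. Sult1a1 had 140 FPKM in male tumour, 142 FPKM in male precancerous and 71.3 FPKM in male normal liver. In females it had 126 FPKM in tumour, 170 FPKM in precancerous and 163 FPKM in normal liver. The tumours lay within the range of the other 4 libraries. The log2 fold change was −0.24 (SE 0.34, adjusted p = 0.640) for tumour against precancerous liver and 0.24 (SE 0.34, adjusted p = 0.635) for tumour against normal liver in edgeR's quasi-likelihood test. With that SE, a change of Sult1a1 much smaller than those of its relatives could not be told from none.

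Sult1d1, which conjugates catecholamines in mouse, had 38.5 FPKM in male tumour, 106 FPKM in male precancerous and 60.1 FPKM in male normal liver. In females it had 30.9 FPKM in tumour, 72.6 FPKM in precancerous and 80.4 FPKM in normal liver. Both tumours lay below the other 4 libraries. The log2 fold change was −1.39 (SE 0.27, adjusted p = 0.0213) against precancerous and −1.07 (SE 0.27, adjusted p = 0.0345) against normal liver in edgeR's quasi-likelihood test. The first call was lost without the male precancerous (adjusted p = 0.160), female tumour (0.0759) or female precancerous library (0.0653), and without the sex term (0.10). Of the 6 leave-outs the second held only in the one without male normal liver, with adjusted p between 0.0508 and 0.132 in the others, and was lost without the sex term (0.114).

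Sult1b1, which conjugates thyroid hormones and small phenols, had 2.17 FPKM in male tumour, 5.27 FPKM in male precancerous and 5.26 FPKM in male normal liver. Female tumour had 1.20 FPKM, female precancerous liver 5.41 FPKM and female normal liver 6.80 FPKM. Here too both tumours stood below all other libraries. Its log2 fold change was −1.76 (SE 0.30, adjusted p = 0.0150) against precancerous and −1.96 (SE 0.30, adjusted p = 0.00819) against normal liver in edgeR's quasi-likelihood test. The first was lost without the male (adjusted p = 0.106) or the female precancerous library (0.112) and without the sex term (0.0772).

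Sult1c2 was the lowest of the family 1 genes with Sult1b1, at 2.29, 4.40 and 1.36 FPKM in male tumour, precancerous and normal liver and at 1.62, 4.79 and 5.09 FPKM in the female libraries of these tissues. The male tumour was thus above male normal liver, by counts of 31 against 15, while the female tumour was below both other female livers. On the log2 scale it differed by −1.32 against precancerous liver (SE 0.55, adjusted p = 0.140) and −0.86 against normal liver (SE 0.56, adjusted p = 0.291) in edgeR's quasi-likelihood test. The first passed without male (adjusted p = 0.0259) or female normal liver (0.0281). The second passed without male normal liver (0.0313) and was 0.54 without female normal liver.

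Sult2a1, Sult2a2 and Sult3a1 had a tissue pattern that differed between the sexes. In males all 3 had 0 counts in normal liver, and in females they were abundant outside the tumour and low inside it. Sult2a1, a hydroxysteroid and bile acid sulfotransferase, had 10 counts in male tumour (1.33 FPKM), 1 count in male precancerous and 0 in male normal liver. Female tumour had 4.47 FPKM of it, female precancerous liver 55.4 FPKM and female normal liver 143 FPKM. Sult2a2, its hydroxysteroid-conjugating neighbour, had 7 counts in male tumour and 0 in both other male livers, and 12.7 FPKM in female tumour, 72.6 FPKM in female precancerous and 168 FPKM in female normal liver. The male and female directions were opposite for both genes.

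Within males, the tumour was at least 2.72-fold above normal liver for Sult2a1 and at least 1.90-fold for Sult2a2, with a floor of 3 counts put in place of a library's 0; these bounds leave out the counting error of the tumour library. Against male precancerous liver the ratio of Sult2a1 was 9.38 (1.33 to 407), from 10 counts against 1, and Sult2a2 was at least 2.19-fold higher. Within females, Sult2a1 was 32.1-fold lower in tumour than in normal liver (25.8 to 40.4) and Sult2a2 was 13.2-fold lower (11.3 to 15.5). The fit over both sexes called both genes lower in tumour than in normal liver, at a log2 fold change of −4.38 (SE 1.26, adjusted p = 0.0499) for Sult2a1 and −3.38 (SE 0.90, adjusted p = 0.0409) for Sult2a2 in edgeR's quasi-likelihood test. Those calls rest on the female libraries. Without the female tumour library the values were 3.31 for Sult2a1 (adjusted p = 0.0696) and 5.73 for Sult2a2 (0.0378), and without female normal liver they were 4.08 (0.768) and 4.07 (0.712). The calls were also lost without the male precancerous library (0.122 for Sult2a1, 0.0965 for Sult2a2) or the female precancerous library (0.137 and 0.102), and in limma on log2(FPKM + 1) (0.407 and 0.475), and DESeq2 gave 1.17 (0.821) and 2.45 (0.633). A minimum of 5 FPKM (0.0828 and 0.0690) or a fit without the sex term (0.448 and 0.571) also ended both, and RLE scaling that of Sult2a1 (0.0504). Against precancerous liver the values were −3.10 (SE 1.22, adjusted p = 0.125) and −2.19 (SE 0.88, adjusted p = 0.129) in edgeR, and without the female tumour library 4.68 (0.0330) and 6.97 (0.0262).

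Sult3a1, which conjugates amines in mouse, had 8 counts in male tumour (1.04 FPKM), 36 counts in male precancerous (4.99 FPKM) and 0 in male normal liver. In females it had 1.04 FPKM in tumour, 149 FPKM in precancerous and 115 FPKM in normal liver. The tumours of both sexes were at the same low level, above male and below female normal liver. In males the tumour was 4.80-fold below precancerous liver (2.19 to 11.9) and at least 2.18-fold above normal liver, and precancerous liver was at least 10.4-fold above normal liver, at the same floor of 3 counts. In females the tumour was 143-fold below precancerous liver (92.6 to 235) and 111-fold below normal liver (71.4 to 181). The log2 fold change over both sexes was −6.55 (SE 1.49, adjusted p = 0.0322) against precancerous and −5.76 (SE 1.47, adjusted p = 0.0363) against normal liver in edgeR's quasi-likelihood test.

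Both calls of Sult3a1 depended on single libraries. The first was lost without the male precancerous (adjusted p = 0.173), female tumour (−1.66 on the log2 scale, 0.467) or female precancerous library (0.199), without the sex term (0.346), in limma on log2(FPKM + 1) (0.162) and in DESeq2 (0.465). The second was lost without the male precancerous (0.119), female tumour (−0.84, 0.728), female precancerous (0.0963) or female normal library, where the value was 2.97 (0.824), without the sex term (0.315), in limma (0.323), in DESeq2 (0.695) and with a minimum of 5 FPKM (0.0516). A test of whether a tissue difference itself differed between the sexes was not possible for any of the 9 genes, since 1 library for each tissue and sex leaves no residual degrees of freedom.

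**Figure D4:**
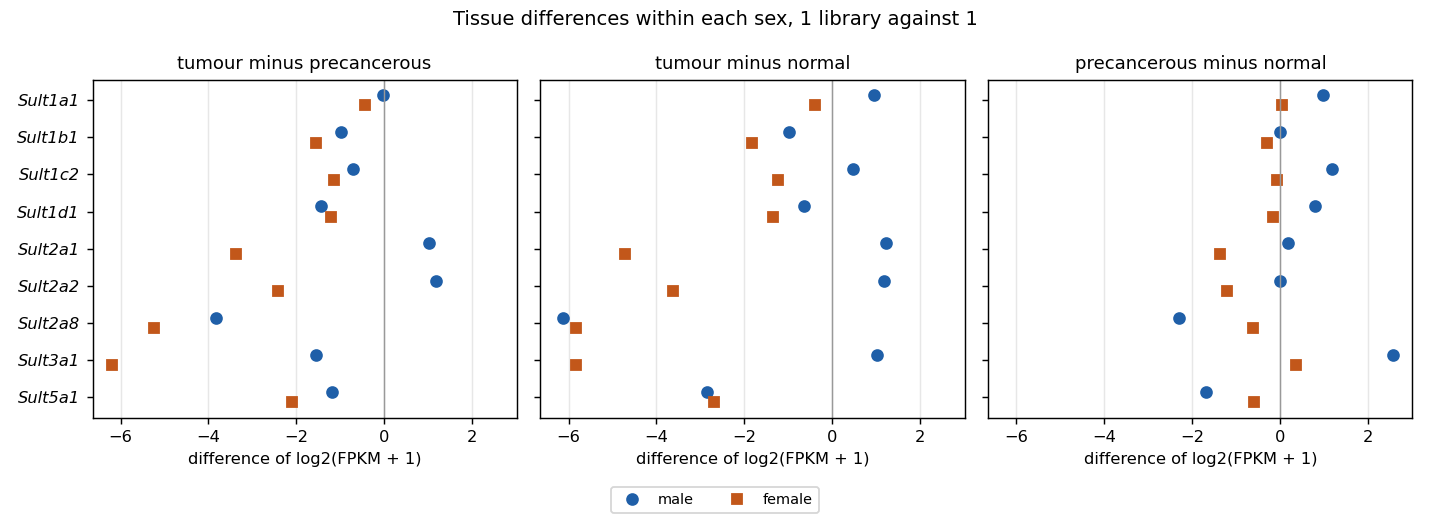
The horizontal axis is the difference of log2(FPKM + 1) between a pair of libraries of the same sex, circles for males and squares for females, for tumour minus precancerous, tumour minus normal and precancerous minus normal liver. Sult2a8 and Sult5a1 lie left of 0 in both sexes in every panel, whereas for Sult2a1 and Sult2a2 the male points lie right of 0 and the female points left of it in the tumour panels.

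Counting genes at least 2-fold apart on log2(FPKM + 1) within a sex gives the same contrast between males and females without a fit. The male tumour was lower in 4 genes than male precancerous liver (Sult1d1, Sult2a8, Sult3a1 and Sult5a1; 4.7% of genes tested) and higher in Sult2a1 and Sult2a2 (6.64%). Against male normal liver it was lower in 2, Sult2a8 and Sult5a1 (5.97%), and higher in 3, Sult2a1, Sult2a2 and Sult3a1 (8.38%). The last 3 had 7 to 10 counts in the male tumour, so their male folds are known only roughly. Sult1b1 just missed the rule in both male comparisons, at −0.98 on this scale. Its scaled counts were 2.43-fold lower in male tumour than in male precancerous liver and 2.42-fold lower than in male normal liver, so the contrast depends in part on the scale. The female tumour was lower in 8 of 9 genes than female precancerous liver, all but Sult1a1, where 4.85% of genes tested were, and higher in 0 (5.94%). Against female normal liver it was lower in 8 as well, where 6.97% of genes were, and higher in 0 (7.42%). The comparisons of tumour with precancerous and with normal liver share the tumour library and are not independent.

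No member was called between precancerous and normal liver by edgeR's quasi-likelihood test, where 0.254% of all genes tested were called. DESeq2 and limma on log2(FPKM + 1) also called 0 of the 9. At an unadjusted p under 0.05 there were 2, Sult5a1 with a log2 fold change of −1.32 (adjusted p = 0.200) and Sult2a8 with −1.36 (adjusted p = 0.301). In single pairs the male precancerous liver had 5.0-fold less Sult2a8 than male normal liver (4.73 to 5.28) and 4.6-fold less Sult5a1 (3.12 to 6.95). Female precancerous liver had 1.53-fold less Sult2a8 than female normal liver (1.47 to 1.59) and 1.64-fold less Sult5a1 (1.36 to 1.98). The female pair differed most in Sult2a1, 2.59-fold lower (2.39 to 2.80), and Sult2a2, 2.32-fold lower (2.14 to 2.52). By the rule of at least 2-fold, 2 genes were lower and 2 higher (Sult1c2 and Sult3a1) in male precancerous than in male normal liver, where 1.77% and 1.92% of genes tested were, and 2 were lower and 0 higher in the female pair, where 1.25% and 1.23% were.

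Between the sexes, 3 of the 9 genes were lower in males and 0 higher, where 18.2% of all genes tested were lower and 19.1% higher. These were Sult2a2 with a log2 fold change of −7.29 (SE 0.93, adjusted p = 0.00738), Sult2a1 with −6.66 (SE 1.16, adjusted p = 0.0134) and Sult3a1 with −5.34 (SE 1.06, adjusted p = 0.0186) in edgeR's quasi-likelihood test. In normal liver the male level was at least 292-fold below the female one for Sult2a1, at least 249-fold for Sult2a2 and at least 239.9-fold for Sult3a1, at the floor of 3 counts for a library with 0. In the tumours the gap was smaller: Sult2a1 was 3.35-fold lower in males (1.73 to 7.24), Sult2a2 was 9.91-fold lower (4.71 to 25.0), and Sult3a1 had a male to female ratio of 1.0 (0.382 to 2.38). Every female library was above every male library for Sult2a1 and Sult2a2, a pattern of 11.3% of all genes tested, while 0 of the 9 and 22.9% of all genes had every male library above every female one. Without the male or the female precancerous library the calls of all 3 were lost, at adjusted p of 0.0931 and 0.0968 for Sult2a1, 0.0555 and 0.0552 for Sult2a2, and 0.139 and 0.121 for Sult3a1. That of Sult2a1 was also lost without female normal liver (0.0519) or the tissue term (0.0510), and that of Sult3a1 in DESeq2 (0.0664), in limma on log2(FPKM + 1) (0.0881) and without the tissue term (0.137).

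Sult2a8 ran the other way, with a log2 fold change of 1.08 for male against female (SE 0.43, adjusted p = 0.105). It passed in DESeq2 (adjusted p = 0.0249), and in edgeR without the male (0.0368) or the female precancerous library (0.0320). Male tumour had 4.24 times the female tumour level (3.01 to 6.03), next to the 3.07-fold gap of normal liver. Sult1a1 had a log2 fold change of −0.52 (adjusted p = 0.195), and in normal liver alone the male level was 2.29-fold below the female one (2.16 to 2.43). By the rule of at least 2-fold, the male tumour was lower than the female tumour in 2 genes, Sult2a1 and Sult2a2 (1.51% of genes tested), and higher in 1, Sult2a8 (6.72%). Male precancerous liver was lower than female in 3, Sult2a1, Sult2a2 and Sult3a1 (2.07%), and higher in 0 (6.88%). Male normal liver was lower than female in 5, these 3 with Sult1a1 and Sult1c2 (3.27%), and higher in 1, Sult2a8 (7.73%). Log2 fold changes over all tissues for the other members were −0.53 for Sult1c2, −0.47 for Sult5a1, 0.06 for Sult1d1 and 0.0036 for Sult1b1, none of them called.

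Other cytosolic sulfotransferases outside the 9 were read from a list of 14, of which 12 were in the table and 7 expressed enough to be tested. Against normal liver, 4 of these 7 fell in tumour and 2 rose, and against precancerous liver 3 fell and 1 rose, beside the shares of all genes given above (16.1% lower and 17.3% higher, and 12.1% lower and 13.8% higher). The Sult2a neighbours fell with the members: Sult2a7 had 0.304, 10.8 and 3.90 FPKM in male tumour, precancerous and normal liver and 0.121, 66.2 and 173 FPKM in the female libraries. Its log2 fold change was −8.47 (adjusted p = 0.0121) for tumour against precancerous and −9.00 (adjusted p = 0.00706) for tumour against normal liver in edgeR's quasi-likelihood test. Sult2a3 and Sult3a2 had 0 counts in all 3 male libraries, and in females 0.214 and 0.123 FPKM in tumour, 7.62 and 22.5 FPKM in precancerous and 11.9 and 8.35 FPKM in normal liver. Both were called lower in tumour in both comparisons, on the female libraries; mt-Co1, which liver expresses, was also at 0 in the male ones. Sult2a5 was called lower in tumour than in normal liver alone (−3.65, adjusted p = 0.0260), and Sult2a6, with at most 2.71 FPKM, was not called. Several of these genes share sequence with a near copy, up to 34.5% for Sult2a5.

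The genes that rose were Sult1e1, of the same family as Sult1d1, and Sult4a1. Sult1e1, the oestrogen sulfotransferase, lies 6.94 kb from Sult1d1 and was higher in tumour than in normal liver, but not than in precancerous liver. It had 0.986, 2.10 and 0.134 FPKM in male tumour, precancerous and normal liver, and 10.3, 9.26 and 0.274 FPKM in the female libraries. Its log2 fold change in edgeR's quasi-likelihood test was 4.81 (SE 0.54, adjusted p = 0.00381) for tumour against normal liver. In the same test it was 4.99 (SE 0.55, adjusted p = 0.0556) for precancerous against normal liver and −0.18 (SE 0.35, adjusted p = 0.748) for tumour against precancerous liver. In females the tumour was 37.7-fold above normal liver (17.1 to 104), from 236 counts against 6. Sult4a1, known from brain, had 2.34, 0.304 and 0 FPKM in the male libraries and 2.71, 0.223 and 0.0238 FPKM in the female ones, in the order tumour, precancerous, normal. For tumour the log2 fold change was 3.30 (SE 0.37, adjusted p = 0.00591) against precancerous liver and 6.85 (SE 0.56, adjusted p = 0.00191) against normal liver. Its tumour counts of 41 in the male and 119 in the female stood against 0 to 8 in the other libraries. Of the 7 tested, 5 were lower in males than in females, where 18.2% of all genes tested were. Sult1e1 was among them with −2.70 (adjusted p = 0.00826 in edgeR's quasi-likelihood test), as were Sult2a3 and Sult3a2, which had 0 counts in each male library.

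**Figure D5:**
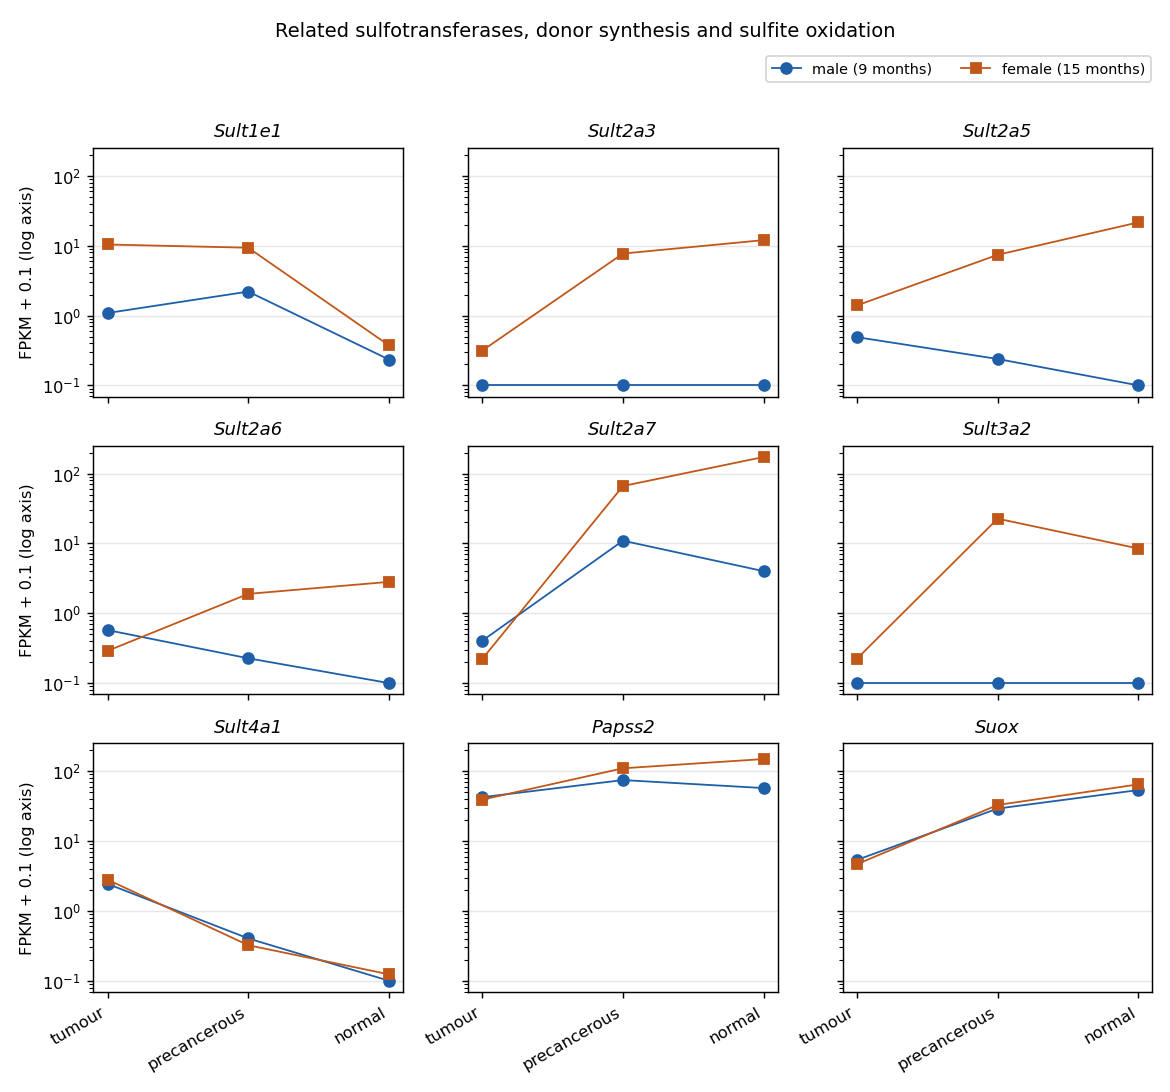
Panels as in the plot of the 9 genes by tissue, with FPKM + 0.1 on a log axis, for 7 other sulfotransferases, the donor-making enzyme Papss2 and the sulfite oxidase Suox. Sult4a1 is highest in the tumours of both sexes, Suox is lowest there (5.27 FPKM in males, 4.57 FPKM in females), and Sult2a3 and Sult3a2 are at 0 in each male library.

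Of 11 listed genes for synthesis, transport and recycling of the sulfonate donor, 8 were tested; 1 rose in tumour against precancerous liver, and 1 rose and 2 fell against normal liver. Of all genes tested, 13.8% rose and 12.1% fell in the first comparison, and 17.3% rose and 16.1% fell in the second. Slc26a2, a sulfate transporter, rose in tumour against precancerous liver (1.32, adjusted p = 0.00495) and against normal liver (1.25, adjusted p = 0.00344). Papss1, which makes PAPS, fell against normal liver (−1.24, adjusted p = 0.0227), as did the sulfate transporter Slc26a1 (−1.01, adjusted p = 0.0180). Papss2, the more abundant PAPS synthase here, had 42.5, 74.7 and 57.4 FPKM in male tumour, precancerous and normal liver and 39.1, 110 and 149.6 FPKM in the female libraries. Papss2 had a log2 fold change of −1.15 (adjusted p = 0.0738) for tumour against precancerous and −1.23 (adjusted p = 0.0552) for tumour against normal liver.

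Suox, which oxidizes sulfite to sulfate in mitochondria, fell in tumour. Tumour levels were 5.27 FPKM in males and 4.57 FPKM in females. They stood against 29.2 and 32.8 FPKM in male and female precancerous liver and 53.7 and 64.9 FPKM in male and female normal liver. The log2 fold change was −2.69 (adjusted p = 0.00261) against precancerous and −3.63 (adjusted p = 0.00104) against normal liver in edgeR's quasi-likelihood test. Of 5 tested genes of sulfate release, 1 rose against precancerous liver, the arylsulfatase Arsb with 0.43, and 0 were called against normal liver (1 at an unadjusted p under 0.05). Of 8 tested Golgi sulfotransferases, which act on glycans and proteins, the tyrosylprotein sulfotransferase gene Tpst2 rose in both comparisons (0.79 and 0.89). The heparan sulfate enzyme gene Ndst2 fell against precancerous liver (−0.44), and Ndst1 and Chst15 fell against normal liver (−0.75 and −0.69). Of all genes tested, 13.8% rose and 12.1% fell against precancerous liver, and 17.3% rose and 16.1% fell against normal liver. So few calls do not set the sulfate release and Golgi lists apart from all genes.

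Among 15 genes that encode regulators known to act on sulfotransferase genes in rodent liver, 5 fell and 2 rose in tumour against precancerous liver, and 6 fell and 2 rose against normal liver. Over all genes tested these shares were 12.1% and 13.8% against precancerous liver, and 16.1% and 17.3% against normal liver. The growth hormone receptor gene Ghr had 11.9, 48.4 and 57 FPKM in male tumour, precancerous and normal liver, and 7.28, 40.4 and 38.9 FPKM in the female libraries. It fell, with a log2 fold change of −2.28 against precancerous and −2.37 against normal liver. The nuclear receptor genes Nr1i3 (CAR), Nr1h4 (FXR) and Nr1i2 (PXR) fell as well, with log2 fold changes of −2.22, −1.46 and −0.73 against precancerous liver and −1.76, −1.04 and −0.86 against normal liver. Ahr, the dioxin receptor gene, fell in both comparisons (−1.53 and −1.82), and Stat5b, a transducer of growth hormone, against normal liver alone (−0.80). Rora and Nfe2l2 (NRF2) rose, with 0.93 and 0.80 against precancerous and 1.38 and 1.22 against normal liver. Hnf4a, a hepatocyte factor, was not called and had 76.4 to 94.3 FPKM in the 6 libraries. Whether these genes have a part in the sulfotransferase levels was not tested.

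The calls of these related genes depended on single libraries to different degrees. With each library left out in turn, 3 of the 16 calls against precancerous liver were made every time (Suox, Ahr and Ghr), and 8 of the 21 against normal liver (Suox, Sult4a1, Slc26a2, Ahr, Ghr, Nr1i2, Nr1h4 and Nfe2l2). Arsb and Ndst2 were called in 0 of the 6 leave-outs, Chst15 in 1, and Papss1, Ndst1 and Sult2a5 in 2. The sign changed under 1 setting each for Sult2a3 against precancerous and Sult3a2 against normal liver, and under 2 for Sult2a5 against normal liver.

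Of the 5 macrophage markers, Clec4f, Marco and Timd4 fell in tumour against precancerous liver (−2.89, −4.44 and −3.92) and against normal liver (−2.40, −3.38 and −3.49). Adgre1 fell against precancerous liver alone (−0.48, and 0.027 against normal liver), and Cd68 was called in neither comparison (−0.18 and 0.26). The 5 summed to 20.2, 89.4 and 61.9 FPKM in male tumour, precancerous and normal liver and 27.9, 112 and 72.1 FPKM in the female libraries. Clec4f was the largest part of that sum in each non-tumour liver, with 35.1 to 56.3 FPKM. The 4 endothelial markers summed to 21.1, 40.5 and 35.0 FPKM and to 22.2, 43.2 and 42.6 FPKM in the same orders. Of these, Stab2 and Clec4g fell in both tumour comparisons, while Pecam1 rose (0.39 against precancerous and 0.92 against normal liver). The 5 bile duct markers summed to 118, 7.78 and 10.4 FPKM and to 132, 13.3 and 11.7 FPKM. Nearly all of that sum was Spp1, with 115 FPKM in male and 129 FPKM in female tumour, while the keratin genes Krt19 and Krt7 had at most 1.07 and 0.208 FPKM in any library. Of the 5 stellate cell and fibroblast markers, Col1a1, Col3a1 and Acta2 rose against precancerous liver (3.60, 2.25 and 3.50) and against normal liver (2.79, 1.85 and 3.02), and Dcn fell in both (−0.91 and −0.75). Of the 4 lymphocyte markers, the 2 tested, Cd3e and Nkg7, rose against precancerous liver (1.95 and 2.56), and 0 were called against normal liver (0 at an unadjusted p under 0.05). The part of these cell types in the sulfotransferase levels was not tested.

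The genes most like each member across the 6 libraries, by Pearson's r of log2(FPKM + 1), are given as a description without a test. For Sult2a8 they were Mrps35 (0.998) and Aldh5a1 (0.997), and for Sult5a1 the pseudogene Mup-ps12 (0.996) and Arhgef19 (0.991). For Sult1a1 they were Slc16a7 and Sh2b3 (0.981), for Sult1b1 Pank1 (0.999) and Hemk1 (0.997), for Sult1c2 Cyp2c69 (0.987) and Il15ra (0.975), and for Sult1d1 C5ar2 (0.997) and Tigd2 (0.992). For Sult2a1 they were Gamt (0.997) and Mpv17 (0.992), for Sult2a2 Abca3 (0.995) and Rbm22 (0.994), and for Sult3a1 Nrp2 (0.997) and AA415398 (0.997). With 6 libraries and 11435 genes to choose from, values this high occur for each member. The libraries compared share their depth and sex differences. The level of a gene chosen this way could be far from that of its member: Mrps35 stayed between 1.31 and 2.54 FPKM while Sult2a8 ranged from 0.841 to 319 FPKM.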

How the data were processed

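Per the labels' protocols, total RNA from a mirVana extraction went into stranded mRNA libraries. The authors deposited the count of each gene in each library as a whole number, and beside it the FPKM. The submitters' processing notes list TopHat2 2.0.9 and Cuffdiff as tools and GRCm38 and mm10 as builds; the counting tool and strand setting were not stated. The 9 members, the gene lists and the tests were chosen with earlier results of these data known. The members are the rows of those names; other genes named are called list genes, sulfotransferases of at least 1 FPKM in any library, the marker lists and the 2 genes most like each member.

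Genes of at least 1 FPKM in at least 2 libraries (11435) were tested on the deposited counts with edgeR 4.0.16 (R 4.3.3), TMM scaling and a quasi-likelihood fit of sex and tissue over all 6 libraries, two-sided, Benjamini-Hochberg adjusted over all genes tested and called under 0.05. This additive fit has no term for a tissue effect that differs between the sexes. The SE given with a log2 fold change is its absolute value divided by the square root of the test's F statistic. It is not a standard error that the fit itself reports. Single pairs were compared as ratios of counts scaled to library totals, with an exact 95% interval; 3 counts stood in for 0. Alternatives were other scalings, DESeq2 1.42.0, limma 3.58.1 on log2(FPKM + 1) or log2(FPKM + 0.1), other filters, no sex term and each library left out. The fit was also run on simulated counts. These held no sex effect and no tissue effect that differed between the sexes, so they cannot show how the fit handles such genes. Shared stretches of 50 bases and exon overlaps came from GENCODE vM21, where 7 of the 9 genes have the table's span (all but Sult3a1 and Sult5a1), and promoters from RefSeq. The table's rows for Sult3a2 and Sult6b2 were found by gene ID.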

Additional observations from a re-analysis of the deposited data

Results flagged for a closer look

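For Sult1a1, Sult1d1, Sult2a1, Sult2a2 and Sult3a1 the male and the female tissue difference pointed in opposite directions with counting intervals that exclude equality. The share of all genes tested that do so was not computed. Counting intervals are narrow for genes with many counts, so small differences can meet this rule. With 1 library for each tissue and sex, whether the tissue difference itself differs between the sexes was not tested. Values are ratios of counts scaled to library totals, and "at least" marks a bound at a floor of 3 counts for a library with 0, without the counting error of the other library. For tumour against normal liver, Sult1a1 had a ratio of 1.96 in males and 0.770 in females. In the same comparison Sult2a1 had a ratio of at least 2.72 in males and 0.0312 in females, Sult2a2 a ratio of at least 1.90 in males and 0.0756 in females, and Sult3a1 a ratio of at least 2.18 in males and 0.00904 in females. For tumour against precancerous liver, Sult2a1 had a ratio of 9.38 in males and 0.0806 in females, and Sult2a2 a ratio of at least 2.19 in males and 0.175 in females. For precancerous against normal liver, Sult1d1 had a ratio of 1.76 in males and 0.902 in females.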

How the results depend on the processing

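Sult2a8 and Sult5a1 were called lower in tumour than in normal liver under each of 6 leave-outs and 8 other settings, as was Sult1b1. Of the 9 genes, 0 were called between precancerous and normal liver under any of them. Against precancerous liver 5 members were called, 2 to 7 with 1 library left out and 1 without the sex term. Against normal liver 7 were called, 3 to 8 with 1 library left out, 4 with DESeq2, with limma at either pseudocount or with a minimum of 5 FPKM (fewer genes tested), and 3 without the sex term. Between the sexes 3 were called, 1 to 3 with 1 library left out and 1 without the tissue term. Log2 fold changes that changed sign with 1 library left out ranged from −0.74 to 0.13 for Sult1a1, −3.69 to 4.68 for Sult2a1 and −2.56 to 6.97 for Sult2a2 in tumour against precancerous liver. In tumour against normal liver they ranged from −0.31 to 0.85 for Sult1a1, −1.54 to 0.54 for Sult1c2, −5.03 to 4.08 for Sult2a1, −3.76 to 5.73 for Sult2a2 and −6.60 to 2.97 for Sult3a1. In precancerous against normal liver they ranged from −0.038 to 1.11 for Sult1a1, −0.50 to 0.23 for Sult1b1, −0.20 to 1.86 for Sult1c2, −0.090 to 0.77 for Sult1d1, −3.69 to 7.10 for Sult2a1 and −6.71 to 6.23 for Sult2a2. Between males and females they ranged from −0.31 to 0.27 for Sult1b1, −0.93 to 0.069 for Sult1c2, −0.16 to 0.35 for Sult1d1 and −1.21 to 0.093 for Sult5a1. Other settings that changed a sign were DESeq2, with 1.85 for Sult2a1 and 3.35 for Sult2a2 in tumour against precancerous and 1.17 and 2.45 against normal liver, and limma on log2(FPKM + 0.1), with 0.65 and 0.039 for Sult2a2. For Sult1b1 between males and females, near 0 throughout, upper-quartile scaling gave −0.016, no filter −0.014 and no tissue term −0.16. The causes were not tested. Over all genes, the 2965 called between tumour and precancerous liver became 458 to 2937 with 1 library left out and 113 without the sex term, the 3819 between tumour and normal liver 1923 to 3234 and 690, the 29 between precancerous and normal liver 0 to 219 (368 with DESeq2), and the 4270 between the sexes 764 to 3729 and 1237. Where a library had 10 counts or fewer, as the male ones had for Sult2a1 and Sult2a2, depth limits the value. No paired analysis was possible because each group holds 1 library and the labels give no numbers that pair them.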
